A study of Mus musculus with 24 samples.

Results

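The subject here is the difference between muscle samples that were high and low in adipose transcript within their own diet group. For each of 24 arrays of mouse skeletal muscle RNA, the deposited log2 value of Adipoq (adiponectin, a hormone made by adipocytes) was centred on the mean of the array's diet group. The 8 highest arrays, called Adipoq-high below, were set against the 8 lowest, called Adipoq-low, so 16 of 24 arrays were members and 8 lay between. The arrays were thus selected on a measured transcript, and Adipoq itself is left out of every result. The centred values that chose them ran from 0.83 to 3.49 in the Adipoq-high arrays, from −0.79 to 0.77 in the arrays between and from −2.26 to −0.82 in the Adipoq-low arrays, in log2 units. The last array inside the high class stood at 0.83 and the first outside it at 0.77. At the other end the last array inside the low class stood at −0.82 and the first outside it at −0.79, so both borders run through closely spaced arrays.

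The study had 3 groups of 8 mice. STD_Cont mice were given the low fat control diet, HFD_Cont mice were given the high fat diet, and both were of the control lineage. HFD_O3 mice were given the high fat diet and were of the omega-3 lineage. Strain, age, sex, the muscle taken, the length of the diets and what defines the omega-3 lineage are not stated in the labels. The Adipoq-high class held 3 STD_Cont, 3 HFD_Cont and 2 HFD_O3 arrays, and the Adipoq-low class held 3, 2 and 3. The arrays lay on 3 slides, which the classes did not share evenly. Slide 1 held 3 high and 4 low arrays, slide 2 held 5 and 2, and slide 3 held 0 high and 2 low arrays. All 4 arrays in row 1 of slide 2 were Adipoq-high.

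Adipocytes store triglyceride in a single large droplet coated by perilipin and CIDE proteins, release it through lipases under adrenergic and insulin control, and secrete adipokines. In skeletal muscle they lie between the fibres and bundles and along the outer sheath, and a dissected muscle can carry a variable amount of them. In bulk RNA, more adipocytes and more RNA per adipocyte cannot be told apart.

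Between 52.0 and 60.7% of the spots of an array were well above background, and no spot was saturated. The share was 55.1% ± 2.52 (SD, n = 8) in the Adipoq-high and 56.1% ± 2.91 (SD, n = 8) in the Adipoq-low arrays, and 0 of 4 measures of array quality differed between the classes past the threshold (exact permutation tests over samples, two-sided, adjusted p from 0.531 to 0.821). Of the Adipoq-high arrays 6 lay in row 1 of their slide, against 3 of the Adipoq-low arrays (Fisher's exact test, two-sided, p = 0.315).

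The 3 marker genes that should accompany Adipoq in fat tissue did so. Levels below are log2 signals relative to the array's 75th percentile, and they compare arrays for 1 gene, not genes with each other. Plin1, perilipin 1, the coat protein of the adipocyte droplet, had a lowest, median and highest level of −0.18, 0.78 and 1.95 in the Adipoq-high arrays and of −2.98, −2.50 and −1.43 in the Adipoq-low arrays. The classes did not overlap, and the arrays between had a median of −1.09. Cidec, which fuses small droplets into a large one, ran over 2.75, 4.32 and 5.27 in the high arrays and over −0.30, 0.73 and 1.93 in the low arrays, again with no overlap. Cfd, the serine protease adipsin of the alternative complement pathway, ran over 5.31, 5.82 and 7.70 against 2.23, 3.25 and 4.30, and did not overlap either. The adjusted differences were 3.16 ± 0.27 (SE) for Plin1, 3.36 ± 0.36 for Cidec and 2.68 ± 0.36 for Cfd on the log2 scale, or 8.92, 10.3 and 6.42-fold.

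**Figure D1:**
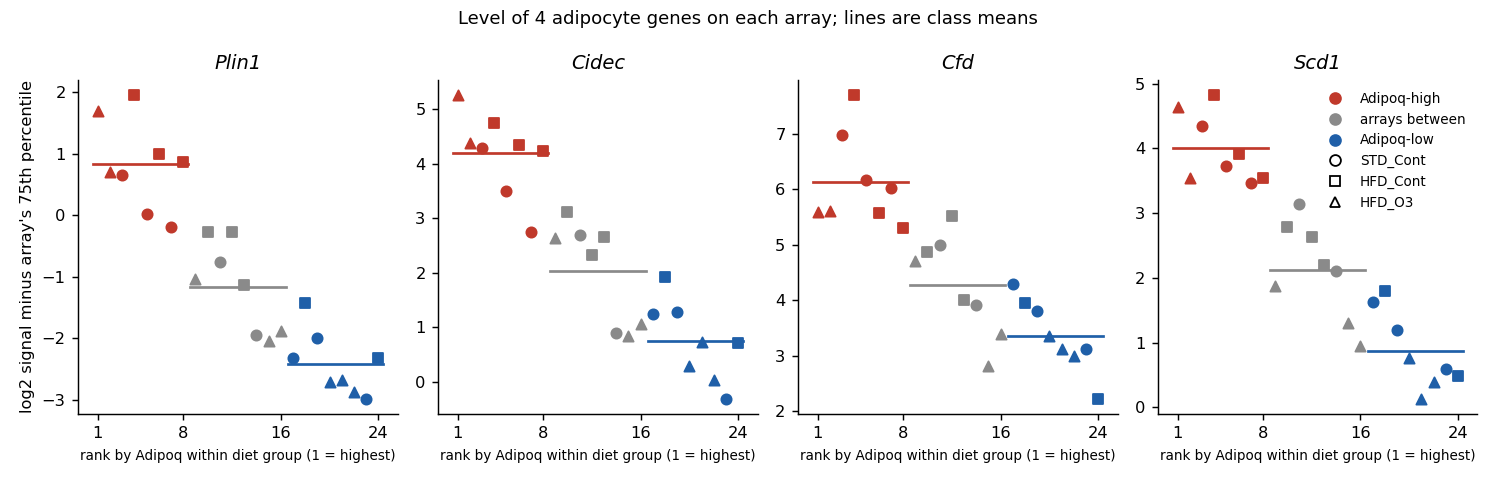
Level of Plin1, Cidec, Cfd and Scd1 on each of the 24 arrays (y axis, log2 signal minus the array's 75th percentile) against the array's rank by Adipoq within its diet group (x axis, 1 is the highest). Colour gives the class, marker shape the diet group and horizontal lines the class means; for all 4 genes every Adipoq-high array lies above every Adipoq-low array.

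The bases upstream of the 3 markers and of Cebpa, which encodes the adipocyte transcription factor C/EBP-alpha, are shown because these genes moved together here. They are the 250 bases before the start of the RefSeq gene on GRCm38.p6 (for Cidec the more upstream of 2 starts), 5′ to 3′ on the gene's strand, with a TATA box (TATAAA) in capitals where a search found one. The regions are chr7:79732777-79733026 on the minus strand for Plin1, chr6:113435761-113436010 on the minus strand for Cidec, chr10:79890603-79890852 on the plus strand for Cfd and chr7:35119043-35119292 on the plus strand for Cebpa.
Plin1: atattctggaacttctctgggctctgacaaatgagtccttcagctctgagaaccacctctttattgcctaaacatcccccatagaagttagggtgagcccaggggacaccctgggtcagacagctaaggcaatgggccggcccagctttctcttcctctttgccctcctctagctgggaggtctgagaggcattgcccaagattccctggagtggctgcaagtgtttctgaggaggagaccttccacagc
Cidec: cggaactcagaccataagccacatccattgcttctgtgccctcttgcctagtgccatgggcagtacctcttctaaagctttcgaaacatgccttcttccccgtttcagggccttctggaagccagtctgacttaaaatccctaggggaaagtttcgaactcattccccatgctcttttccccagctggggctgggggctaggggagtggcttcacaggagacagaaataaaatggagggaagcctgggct
Cfd: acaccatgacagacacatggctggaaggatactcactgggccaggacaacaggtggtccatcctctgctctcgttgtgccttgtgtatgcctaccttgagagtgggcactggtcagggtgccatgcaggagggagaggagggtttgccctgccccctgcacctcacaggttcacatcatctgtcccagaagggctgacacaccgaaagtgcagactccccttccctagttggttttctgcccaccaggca
Cebpa: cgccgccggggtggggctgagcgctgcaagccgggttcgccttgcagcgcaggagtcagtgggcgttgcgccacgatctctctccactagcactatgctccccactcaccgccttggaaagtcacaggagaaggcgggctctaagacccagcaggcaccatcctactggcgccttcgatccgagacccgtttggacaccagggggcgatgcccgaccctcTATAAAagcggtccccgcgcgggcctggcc
Motifs were searched as exact letters on both strands in the upstream bases of the 68 genes higher in the Adipoq-high arrays that had a RefSeq promoter, and of all 11772 tested genes that had one. AGGTCA, the hexamer read by nuclear receptors such as PPAR-gamma, occurred in 8 of the 68 genes (11.8%), against 13.9% of the tested genes. Its direct repeat, the hexamer AGGTCA followed by any 1 base and AGGTCA again, so that each match also counts for the hexamer, occurred in 0 of 68, against 0.034%. TTGCGCAA, a C/EBP palindrome, occurred in 1 gene (Snhg11, 1.47%), against 0.255%, and CCAAT in 18 (26.5%), against 39.6%. TATAAA occurred in 10 (14.7%), against 9.49%. These shares describe letters in a short window and not binding.

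Across all 19937 gene names tested, 121 (0.607%) were higher and 3 (0.015%) were lower in the Adipoq-high arrays at an adjusted p under 0.05 (limma over all names, with the diet group in the model). Since the arrays were ranked by a transcript, an adjusted p here says how closely a gene followed Adipoq over these arrays, and nothing of a diet or lineage. The 121 differences ran from 0.20 to 4.08 with a median of 1.22 on the log2 scale, 73 were over 1 and 30 over 2. In 65 of the 121 the high and low values did not overlap, out of 69 such names (0.346%) among all tested, and 2 names (0.01%) did not overlap in the other direction. For 117 of the 121 (96.7%) the mean of the 8 arrays between lay between the class means, beside 3492 (17.5%) of all names tested. The 121 were selected for their class difference in the same fit. The arrays between also entered that fit through the diet group terms and the residual spread, so this is a description.

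**Figure D2:**
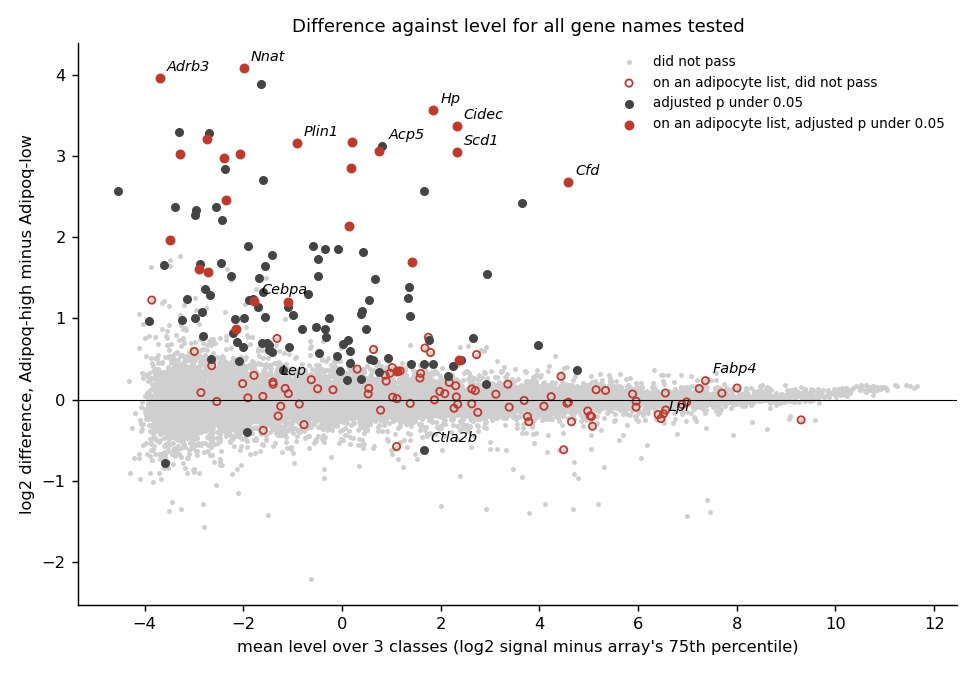
Log2 difference of the Adipoq-high minus the Adipoq-low arrays (y axis) against the mean level over the 3 classes (x axis, log2 signal minus the array's 75th percentile) for the 19937 gene names tested. Filled points passed an adjusted p of 0.05 and red marks members of the adipocyte gene lists; 121 filled points lie above 0 and 3 below, and abundant adipocyte-list genes such as Fabp4 and Lpl lie near 0.

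Of 113 measured genes on 8 lists of adipocyte genes, 25 (22.1%) were higher and 0 lower, with a median difference of 0.13, beside 0.607% higher and a median of 0.00 over all names. The direction of these lists follows from how the arrays were chosen, so the counts describe which adipocyte genes followed Adipoq on this array and which did not.

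Among secreted proteins of adipocytes, 8 of 16 measured genes were higher, with a list median of 0.56. They were Nnat, Hp, Retn, Orm1, Cfd, Rbp4, Nrg4 and Rarres2. Nnat, which encodes the small membrane proteolipid neuronatin and stands on the list as an adipocyte transcript, differed by 4.08 ± 0.40 (adjusted p = 4.18e-06). Its levels ran over −2.01, 0.22 and 1.52 in the high arrays and over −5.94, −4.23 and −1.64 in the low arrays, of which 3 of 8 were well above background, and the classes overlapped. Hp, haptoglobin, which binds free haemoglobin, ran over 2.11, 3.92 and 5.79 against −1.84, −0.36 and 1.83, without overlap, a difference of 3.57 ± 0.51 (adjusted p = 0.000259). Retn, the mouse adipokine resistin, ran over 1.21, 2.48 and 3.60 against −1.33, −1.02 and 0.59, also without overlap, a difference of 3.07 ± 0.32 (adjusted p = 7.14e-06). The carrier protein genes Rbp4 (retinol) and Orm1 (an acute phase lipocalin) were higher by 2.14 ± 0.22 and 2.98 ± 0.46, and the growth factor Nrg4 by 1.57 ± 0.22. In the low arrays Orm1 was well above background on 5 of 8 and Nrg4 on 7. Rarres2, the chemokine-like adipokine chemerin, was higher by 0.49 ± 0.11 (adjusted p = 0.0467). Lep, leptin, did not pass: its levels ran over −1.42, −1.27 and −1.16 against −1.98, −1.48 and −1.18 and overlapped, a difference of 0.22 ± 0.09 (adjusted p = 0.489).

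In the lipolysis list 5 of 11 measured genes were higher, and all 5 belong to its control by hormones. Adrb3, the adipocyte beta-3 adrenergic receptor, ran over −3.40, −1.65 and 2.01 in the high arrays and over −6.77, −5.86 and −3.15 in the low arrays, of which 1 of 8 was well above background, and the difference was 3.96 ± 0.53 (adjusted p = 0.000116). The classes overlapped slightly, and most of the low levels are signals not well above background. Prkar2b, a regulatory subunit of protein kinase A, ran over 0.31, 1.99 and 2.89 against −1.69, −1.41 and 0.23 without overlap, a difference of 2.85 ± 0.27 (adjusted p = 3.27e-06). Acvr1c, the activin receptor ALK7, Adora1, the adenosine A1 receptor that restrains cyclic AMP, and Pde3b, the phosphodiesterase through which insulin restrains lipolysis, were higher by 2.46 ± 0.28, 1.97 ± 0.28 and 1.20 ± 0.15. Acvr1c was well above background on 5 of 8 low arrays and Adora1 on 3, with Pde3b on all 8. The lipases and their cofactors did not pass, with 0.30 for Lipe (hormone-sensitive lipase), −0.18 for Pnpla2 (adipose triglyceride lipase), −0.01 for Mgll, 0.01 for the activator Abhd5 and 0.38 for the inhibitor G0s2.

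Of the droplet coat genes, 2 of 12 were higher, namely Plin1 and Cidec. The coat genes that muscle fibres and other cells also use did not pass, with −0.05 for Plin2, −0.21 for Plin3, −0.06 for Plin4 and −0.33 for Plin5. Cidea, the CIDE gene of brown fat, stood at −0.58 ± 0.23 (adjusted p = 0.485).

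In the fatty acid synthesis list 2 of 16 genes were higher. Scd1, the delta-9 desaturase, ran over 3.47, 3.82 and 4.83 in the high arrays and over 0.14, 0.68 and 1.79 in the low arrays, a gap wider than the range within either class, with a difference of 3.04 ± 0.27 (adjusted p = 1.32e-06). Slc25a1, the mitochondrial citrate carrier, was higher by 0.87 ± 0.16 (adjusted p = 0.00723) with overlapping classes. That is the value of its brightest probe, and the other probe kept for Slc25a1 stood at 0.21. Fasn, fatty acid synthase, stood at 0.55 ± 0.16 (adjusted p = 0.213), and Acly and Acaca, which supply it with acetyl and malonyl units, at 0.07 and 0.00. Of 12 triglyceride synthesis genes, 1 was higher. That was Pck1, which makes glycerol phosphate from small precursors in adipocytes, and it ran over 0.92, 1.71 and 3.76 against −2.01, −1.55 and −0.24, a difference of 3.17 ± 0.40 (adjusted p = 6.52e-05). The acyltransferases Gpam, Agpat2, Dgat1 and Dgat2 stood at −0.09, 0.21, 0.12 and −0.20 and did not pass.

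Of 15 genes of fatty acid uptake and binding 0 passed (5 had an unadjusted p under 0.05), with a list median of −0.03. Fabp4, the adipocyte fatty acid binding protein that capillary endothelium also makes, ran over 7.14, 7.53 and 8.04 in the high arrays and over 7.09, 7.26 and 7.88 in the low arrays, so the classes covered nearly the same range (difference 0.23 ± 0.11, adjusted p = 0.634). Lpl, lipoprotein lipase, stood at −0.23 ± 0.12, Cd36, the fatty acid translocase, at −0.27 ± 0.09, and Gpihbp1, the endothelial anchor of lipoprotein lipase, at −0.27 ± 0.08 (adjusted p = 0.653, 0.359 and 0.272).

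Of 15 adipogenic transcription factors, Cebpa alone passed. Its levels ran over −1.76, −1.13 and −0.11 in the high arrays and over −2.93, −2.15 and −1.70 in the low arrays, a slight overlap, with a difference of 1.22 ± 0.23 (adjusted p = 0.00653). Pparg, the nuclear receptor that drives fat cell differentiation, stood at 0.39 ± 0.13 (adjusted p = 0.307), and Cebpb and Cebpd at −0.14 and −0.62. Of 17 other genes enriched in white adipocytes, 6 were higher and all 17 differences were positive. They were Arxes2 (3.21 ± 0.34), the neutral amino acid transporter gene Slc7a10 (3.03 ± 0.32), the aldehyde dehydrogenase gene Aldh1a7 (3.03 ± 0.43), Sncg (1.70 ± 0.21), the GLUT4 trafficking gene Trarg1 (1.61 ± 0.26) and Tmem120a (0.36 ± 0.08). In the low arrays Arxes2 was well above background on 4 of 8, Slc7a10 on 6, Aldh1a7 on 3 and Trarg1 on 5. Of 10 measured genes of brown and beige adipocytes 0 passed, with a median of −0.02, and Ucp1, the uncoupling protein that defines those cells, was not above background on enough arrays to be tested.

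Of the 12 largest differences by the naming rule, 8 belonged to the adipocyte lists above, and the other 4 were Tmem45b, Sucnr1, Wfdc21 and Acp5. No order is read among the 12, since several have low-array signals that were not well above background. Sucnr1, the succinate receptor, was higher by 3.30 ± 0.36 (adjusted p = 8.76e-06), did not overlap, and was well above background on 2 of 8 low arrays. Acp5, tartrate-resistant acid phosphatase, ran over 1.66, 2.52 and 3.75 against −1.30, −0.70 and 0.40 without overlap, a difference of 3.12 ± 0.27 (adjusted p = 1.32e-06). Tmem45b, a membrane protein gene, and Wfdc21, a small secreted protein gene, were higher by 3.89 ± 0.40 and 3.28 ± 0.51, overlapped, and were well above background on 4 and 2 of 8 low arrays.

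**Figure D3:**
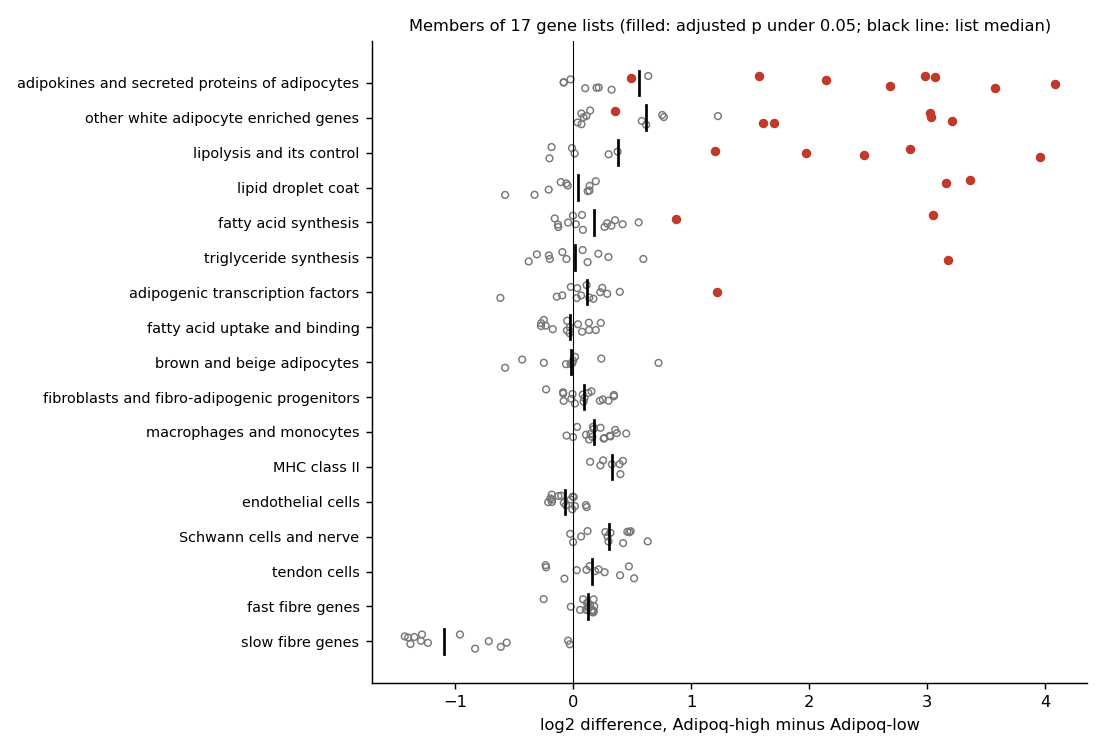
Log2 differences of the Adipoq-high minus the Adipoq-low arrays (x axis) for the measured members of 17 gene lists (y axis); filled points passed an adjusted p of 0.05 and black lines are list medians. Passing genes occur in 7 adipocyte lists only, while the fatty acid uptake list centres on −0.03 and the slow fibre list on −1.10.

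The lists of other cell types held 139 measured genes not on the adipocyte lists. Of these 0 passed, beside 0.607% higher and 0.015% lower over all names. At such shares a set of this size may hold no passing gene. An unadjusted p under 0.05 was found for 13, beside 1571 of all 19937 names. The median difference was 0.10, and 94 of the 139 differences were positive, beside 9954 of all 19937. The fibroblast and progenitor list had a median of 0.09 over 17 genes, from −0.23 to 0.35, and 5 had an unadjusted p under 0.05. It was led by Dpt at 0.35 ± 0.10 (adjusted p = 0.195), with Pdgfra at 0.01. The preadipocyte list had a median of 0.02 over 15, led by Ccn5 at 1.08 ± 0.29 (adjusted p = 0.128). The 15 include Fabp4 and Lpl, which are also on the adipocyte lists and so not among the 139. Endothelial genes had a median of −0.07 over 16 and pericyte and smooth muscle genes 0.04 over 13. Collagens and matrix genes, a separate list not counted in the 139, had a median of 0.05 over 27, and 0 passed. The macrophage list had a median of 0.17 over 17 genes, and its mean level ran from 0.31 to 1.29 in the high and from 0.16 to 0.72 in the low arrays. MHC class II genes had a median of 0.33 over 7, Schwann cell genes 0.30 over 13, tendon genes 0.16 over 12, erythroid genes 0.16 over 7, skin genes 0.09 over 5, mast cell genes 0.01 over 8 and lymphocyte genes 0.00 over 13. Differences were positive for 15 of 17 macrophage, 7 of 7 MHC class II, 11 of 13 Schwann cell and 7 of 7 erythroid genes. They were negative for 12 of 16 endothelial genes. Keratins Krt14 and Krt1 and the T cell genes Trac and Cd8a were not above background on enough arrays to be tested.

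Slow fibre genes pointed the other way without passing the test. All 14 slow fibre genes had negative differences, with a median of −1.10, and 0 passed (12 had an unadjusted p under 0.05, smallest adjusted p = 0.374, for Atp2a2). Myh7, the slow myosin heavy chain, ran over 1.91, 6.43 and 6.93 in the high arrays and over 6.21, 7.47 and 8.73 in the low arrays, a difference of −1.43 ± 0.58 (adjusted p = 0.51). The classes overlapped, and array HFD_Cont 4 alone stood at 1.91. Over the whole list the mean level was 2.60 on that array and from 4.84 to 5.44 on the other 7 high arrays, against 4.96 to 6.79 on the low arrays. Without HFD_Cont 4 the list median was −0.67, with slide as a block −0.84, within slide 1 −1.27 and within slide 2 −0.29. Among the diet groups it was −0.79 in STD_Cont, −2.35 in HFD_Cont and −0.13 in HFD_O3. The 19 fast fibre genes had a median of 0.13 and 0 passed. The part of fibre makeup in the adipocyte differences was not tested.

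**Figure D4:**
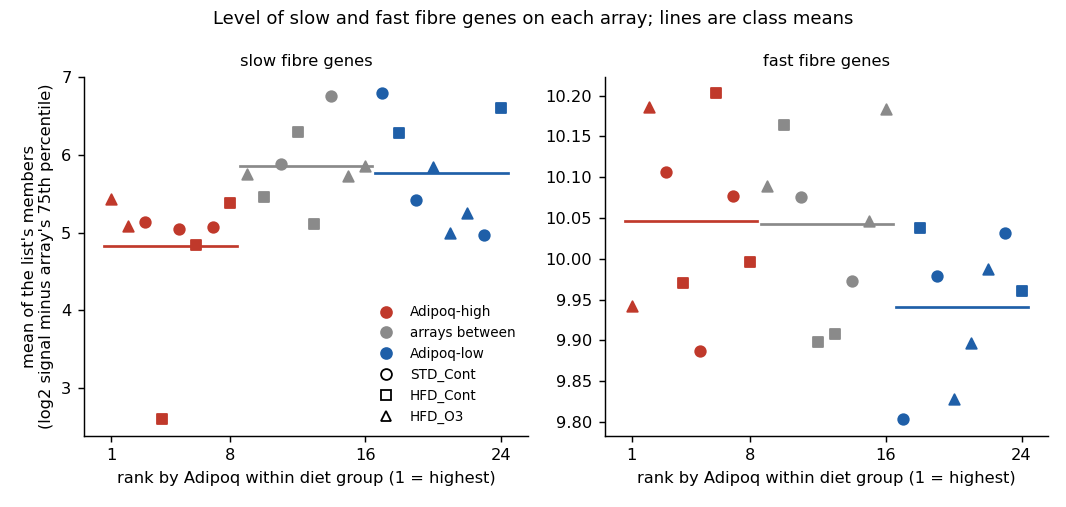
Mean level of the 14 slow fibre genes (left) and the 19 fast fibre genes (right) on each array (y axes, log2 signal minus the array's 75th percentile; the axes have different ranges) against rank by Adipoq within the diet group. Colour gives the class, shape the diet group and lines the class means; array HFD_Cont 4, the low square at 2.60, stands apart in the left panel.

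The remaining lists held no gene that passed. Medians were −0.12 for fatty acid oxidation (26 genes), −0.01 for glucose uptake and insulin signalling (19), 0.08 for cholesterol synthesis (19), −0.08 for immediate early genes (21), −0.18 for atrophy and glucocorticoid response (18), 0.01 for clock genes (16), −0.16 for the neuromuscular junction (14) and −0.02 for satellite cells (11). Negative differences were thus not confined to slow fibre genes. They were found for 22 of 26 fatty acid oxidation, 16 of 18 atrophy and 12 of 14 neuromuscular junction genes. In those lists, in that order, 5, 4 and 4 genes had an unadjusted p under 0.05. Cholesterol synthesis leaned the other way, with 15 of 19 positive and 5 genes at an unadjusted p under 0.05.

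Only 3 names were lower in the Adipoq-high arrays. Ctla2b, a cysteine protease inhibitor gene, ran over 1.05, 1.40 and 1.60 in the high arrays and over 1.61, 1.87 and 2.67 in the low arrays, so the classes met without overlapping, and fell by 0.62 ± 0.14 on the log2 scale (adjusted p = 0.0392). Gabbr1, a GABA-B receptor subunit, fell by 0.40 ± 0.09 (adjusted p = 0.0397) with overlapping classes, and the unnamed transcript 2700068H02Rik fell by 0.78 ± 0.14 (adjusted p = 0.00553) and was well above background on 2 of 8 high arrays. The next by p were Per1, a clock gene that glucocorticoids induce, at −0.62 ± 0.15, Tex35 at −0.80 ± 0.19 and Ube2t at −0.29 ± 0.07 (adjusted p = 0.0538, 0.0564 and 0.0631), which did not pass. These are values of the brightest probe, and the other probe kept for Per1 stood at 0.12 and that for Ube2t at 0.077. With slide as a block Ctla2b and Gabbr1 had an adjusted p of 0.194 and 0.109, and when each of the 24 arrays was left out in turn they passed in 9 and 7 of the 24 fits.

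The differences were set beside the diet groups and slides. In each diet group alone all 121 genes were higher in its Adipoq-high arrays, with a median of 0.80 in STD_Cont (3 against 3 arrays), 1.36 in HFD_Cont (3 against 2) and 1.58 in HFD_O3 (2 against 3). These genes were selected on all 24 arrays, so their sign within a subset is a description. Hp differed by 2.40, 2.61 and 6.11 in the 3 groups in that order, and Plin1 by 2.60, 3.14 and 3.96, while Cfd differed by 2.65, 3.10 and 2.44. The centred Adipoq values that chose the arrays also lay farther apart in HFD_O3, with class means 4.56 apart, than in STD_Cont (2.87) or HFD_Cont (3.00). In HFD_O3 the high arrays all lay in row 1 of slide 2 and the low arrays on slides 1 and 3. Class and slide thus cannot be told apart within HFD_O3. The test of the class by diet group interaction called 0 of 19937 names (0%; 1014 had an unadjusted p under 0.05, smallest adjusted p = 0.898), so no difference between the diet groups was shown for any gene.

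**Figure D5:**
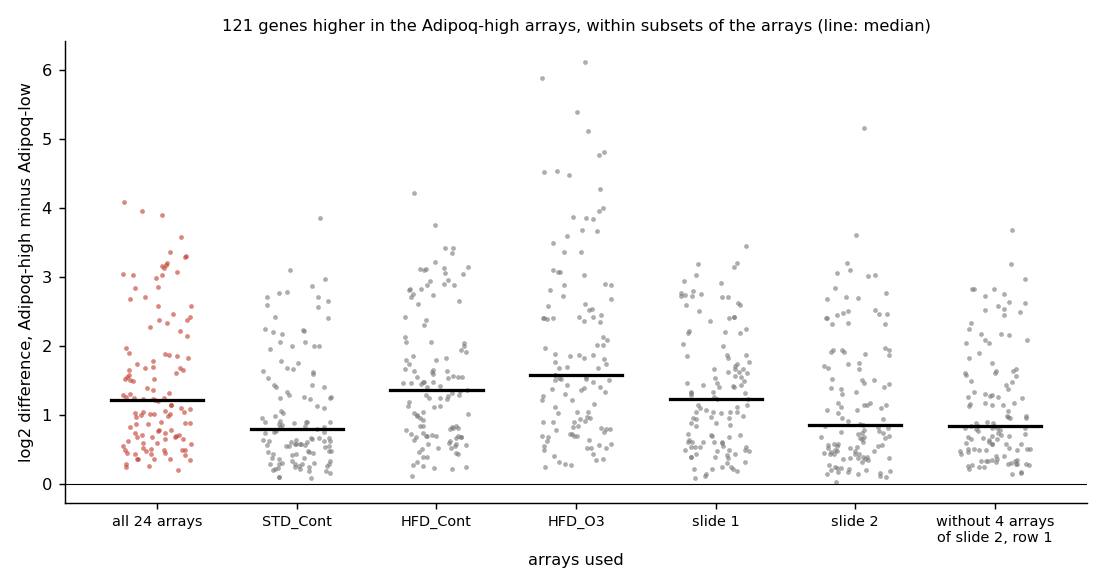
Log2 differences of the 121 genes higher in the Adipoq-high arrays (y axis), over all 24 arrays and within subsets of the arrays (x axis); each point is a gene and each line a median. All points lie above 0, and the medians are 1.22 over all arrays, 0.80, 1.36 and 1.58 in the diet groups, 1.23 and 0.85 in slides 1 and 2, and 0.84 without the 4 arrays of slide 2, row 1.

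With slide as a block 99 names were higher and 1 lower, and 94 of the 121 genes were among them. Within slide 1 the 121 genes had a median of 1.23 and within slide 2 one of 0.85, while slide 3 held no Adipoq-high array and gave no value. The 4 arrays of slide 2, row 1, were HFD_O3 4, HFD_O3 5, HFD_Cont 4 and HFD_Cont 5, with Adipoq ranks 1, 2, 4 and 6. Leaving them out removed every HFD_O3 high array, and STD_Cont 1, STD_Cont 2, STD_Cont 4 and HFD_Cont 2 remained as high arrays. Slide position, diet group, Adipoq level and sample number changed together in that fit and cannot be told apart. Without the 4 arrays of slide 2, row 1, the median was 0.84, 48 names were higher, and 17 of the 113 adipocyte genes remained called. Plin1, Cidec and Cfd then differed by 2.63, 2.82 and 2.44 and still passed, whereas Cebpa (0.80, adjusted p = 0.546), Slc25a1 (0.61, 0.446) and Wfdc21 (2.62, 0.105) did not, nor did Aldh1a7, Orm1, Adora1, Trarg1, Rarres2 and Tmem120a. With a block for slide and one for array row, Slc25a1, Rarres2 and Tmem120a lost their calls, 22 of the 25 adipocyte-list genes kept theirs, and Fasn passed (adjusted p = 0.0453).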

How the data were processed

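Total RNA of 24 muscle samples was labelled with Cy3 and hybridised to one-colour Agilent arrays, 1 per sample, per the labels. The authors' deposited scanner files give a processed signal intensity per spot from Agilent Feature Extraction 10.10.1.1, per the file headers. The deposited value table gives log2 values for 30124 of 56605 probes; its scaling is not given in the sources used here, and its columns correlated with log2 scanner signals at 0.9912 to 0.9934. It supplied 1 Adipoq probe and the ranking.

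For all tests, an array's 75th percentile was subtracted from its log2 intensities, flagged spots were left out, and spots of a probe were averaged. Probes well above background on at least 6 arrays of a diet group were kept, and the brightest probe stood for a gene. Symbols came from RefSeq accessions, which matched 32989 probes. limma 3.58.1 in R 4.3.3 was fitted to all 24 arrays (class and diet group; Benjamini-Hochberg over 19937 names; threshold 0.05, two-sided); the fit was tested on simulated data. The number of arrays limits the precision.

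Named were Plin1, Cidec and Cfd, the 12 largest passing differences each way with a plain symbol, the 3 smallest p of each list's passing members or the smallest p of a list with none, and the 5 smallest p where under 5 genes passed. Other list members and all others named were chosen after their values were seen. The members, the 32 gene lists and the tests were chosen with earlier results of these data known. RefSeq promoters (GRCm38.p6) of Scd1 and Adrb3 were not used here.

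Alternatives were other background corrections, scalings and filters, the value table, probe averaging, slide, row and replicate blocks, other rankings and class sizes, other limma settings, subsets of arrays and each array left out.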

Additional observations from a re-analysis of the deposited data

Results flagged for a closer look

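Among the genes named, 5 sets of 8 arrays held 1 array far from the rest by Dixon's test, of 108 sets tested; chance alone gives such a gap in about 1 of 20 sets. Array HFD_Cont 1, an Adipoq-low array, accounted for 3 of them. Its Prkar2b level was 0.23, with the next low array at −1.01. Its Ube2t level was −0.0137, with the next at 0.32, and its Pdgfrb level was 1.85, with the next at 2.22. In the Adipoq-high arrays, Lgals3, which encodes the macrophage lectin galectin-3, stood at 3.09 on HFD_O3 4, with the next at 1.71. Atp2a2, the slow fibre calcium pump gene, stood at 0.96 on HFD_Cont 4, with the next at 3.37.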

How the results depend on the processing

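The 121 genes kept a positive difference under every setting in which they were tested. The count of higher names was 121 in the reported fit and moved to 7 within slide 1, 18 within slide 2, 48 without the 4 arrays of slide 2, row 1, 0 in STD_Cont alone, 5 in HFD_Cont alone and 32 in HFD_O3 alone. Of these, 1, 0, 47, 0, 4 and 28 were among the 121, so within a slide nearly all passing names were different genes. With the replicate block it was 38, of which 37 were among the 121, and 1 name, not among the 3, was lower. The labels do not say whether samples of the same replicate number belong together. Correlations of the deviations of such samples ran from −0.14 to 0.36 with a median of 0.04, against a median of −0.01 for other numbers. Of the 24 arrays 6 were closest to one of their own number. These values cannot settle whether the numbers pair the samples. Leaving out 1 array gave 89 (without HFD_Cont 3) to 127 higher names and 1 to 17 (without STD_Cont 5) lower names. The count of lower names, 3 as reported, was 1 with median scaling, with no filter on dim probes and with slide as a block, each time 1 of the 3. It was 1 without the 4 arrays of slide 2, row 1, and in HFD_O3 alone, each time another name. It was 0 with slide and row as a block, within slide 1 or 2, in STD_Cont or HFD_Cont alone and with 12 arrays a class. It was 5 with the value table (2 of the 3 among them), 5 with 6 arrays a class (0), 6 with the 16 ranked arrays alone (1) and 10 with the continuous Adipoq level (0). Over all settings, 180 values of passing named genes lost the call and 30 values of the other named genes gained it, with no change of sign. The interaction count was 0 under all 4 settings.

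Of genes that did not pass, some changed sign, and the cause was not tested. Lgals3 stood at −0.0824 in STD_Cont alone, Cd3d at −0.57 within slide 1 and −0.29 in HFD_Cont alone, H2-DMb1 at −0.11 with the replicate block, and Trp63 at −0.0419 within slide 1. Hba-a1 stood at −0.13 within slide 1, −0.27 within slide 2 and −0.0767 in HFD_Cont alone. Within slide 2, Mybpc2 stood at −0.16, Irs3 at −0.13, Eci2 at 0.0125 and Myf6 at 0.0038, and Myf6 at 0.0453 in STD_Cont alone.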

Other observations

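Some passing genes outside the lists belong to known groups, grouped here after their values were seen and given as values only. Besides Cfd, the complement genes C4b (1.38 ± 0.22), Cfb (1.30 ± 0.20) and C2 (0.74 ± 0.13) were higher in the Adipoq-high arrays (limma adjusted p = 0.00118, 0.000523 and 0.00251). None of them overlapped between the classes, as was so for 69 (0.346%) of all names tested. The complement genes C1qa, C1qb and C1qc, on the macrophage list, stood at 0.23, 0.31 and 0.17 and did not pass. Among the passing genes were also some of serine and amino acid supply, and other members of those pathways are not given here. Phgdh, the first enzyme of serine synthesis, differed by 1.82 ± 0.20, Asns, asparagine synthetase, by 0.88 ± 0.11, the glutamine carrier gene Slc1a5 by 1.25 ± 0.17, the glutamate carrier gene Slc1a3 by 1.68 ± 0.26 and the mitochondrial serine carrier gene Sfxn1 by 0.57 ± 0.13. With slide as a block Sfxn1 did not pass (adjusted p = 0.0891), and Slc1a3 was well above background on 6 of 8 low arrays. The pentose phosphate genes G6pdx and Tkt differed by 0.59 ± 0.13 and 0.44 ± 0.09.

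The iron handling genes Trf (transferrin) and Heph (hephaestin) differed by 1.54 ± 0.17 and 1.52 ± 0.20. Among signalling genes next to the cyclic AMP pathway, Gnai1, an inhibitory G protein subunit, differed by 1.52 ± 0.15, Adcy5, an adenylate cyclase, by 1.02 ± 0.19, Mrap, the accessory protein of the ACTH receptor, by 2.84 ± 0.34 and Ffar2, a short chain fatty acid receptor, by 2.22 ± 0.46. With slide as a block Ffar2 did not pass (adjusted p = 0.137), and Mrap and Ffar2 were each well above background on 5 of 8 low arrays. Cdo1, the cysteine dioxygenase, and Cyp2e1 differed by 2.70 ± 0.27 and 2.57 ± 0.33. The apolipoprotein genes Apoc1 and Apoe differed by 1.86 ± 0.22 and 0.67 ± 0.13. Without the 4 arrays of slide 2, row 1, C4b, C2, Slc1a3, Sfxn1, G6pdx, Tkt, Adcy5, Ffar2 and Apoe did not pass.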
